A study of Mus musculus with 6 samples.

Results

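The genes of the major histocompatibility complex (MHC) and of antigen presentation were followed in ARC tissue of male mice on NCD or HFD. They were chosen by gene symbol: every gene whose symbol starts with H2-, together with *B2m*, *Tap1*, *Tap2*, *Tapbp*, *Psmb8*, *Psmb9*, *Psmb10*, *Nlrc5*, *Ciita* and *Cd74*. The rule found 48 of the 22322 genes in the deposited table, 38 with an H2 symbol and 10 named singly, and 43 of them lie on chromosome 17. The family as a whole was selected by looking at the diet comparison of these same 6 samples, so the differences between NCD and HFD given here describe the genes, and their p-values are not independent evidence. Of the 48 genes, 27 passed edgeR's filter on low counts and were tested, 7 others had more than 10 counts in all samples together, 5 had 1 to 10 counts and 9 had none. Those without a count were 7 H2-M genes, *H2-T3* and *H2-Ea-ps*, the pseudogene of the class II E alpha chain.

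The study asked which genes of the ARC, the hypothalamic nucleus that holds Kiss1 neurons, differ in obese males whose LH pulses are disturbed. Both groups were male mice. From 4 weeks of age, the NCD group was fed a normal chow with 16.5% fat and the HFD group a diet with 60% fat, each for 16 weeks, and no other treatment or allele separated the groups in the labels. The study's methods name C57BL/6J wild-type animals and Kiss1-Cre mice crossed with R26R-EYFP reporter mice, in which Kiss1 neurons are visible; which of these gave the sequenced samples, and whether a sample was 1 mouse or several, is not given in the sources used here. The ARC was cut from frozen sections by laser capture microdissection (LCM), so each of the 3 NCD and 3 HFD samples held RNA of all cell types in the cut area, and fewer cells of a type cannot be told apart from less RNA per cell. The neuropeptide *Cartpt*, the most abundant gene of 15 markers of ARC neurons, had a mean FPKM of 749, and all 15 passed the filter. *Kiss1* itself was low, with no count in NCD1 or HFD1, the first sample of each group.

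Counts added up to 15925648, 9937632 and 6882449 in NCD1 to NCD3 and to 8024664, 10479778 and 5171381 in HFD1 to HFD3. A count of 3, taken as the smallest detectable amount, was 0.188 CPM (counts scaled to library size) in NCD1 and 0.58 CPM in HFD3. These limits used total counts without the scaling factors of the gene values, and they cover counting error only. The libraries fell into deeper and shallower ones across the diets. Of the 14188 genes tested, 30.7% had either NCD1, NCD2 and HFD2 or NCD3, HFD1 and HFD3 as their 3 highest samples, which are the 3 deepest and the 3 shallowest libraries. The diet comparison was therefore also run with library size (log2 of the total) as a covariate.

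Class I molecules are built of a heavy chain, encoded by the H2-K, H2-D, H2-Q, H2-T and H2-M genes, and of the light chain beta-2 microglobulin, encoded by *B2m*. They carry peptides that the proteasome cuts in the cytosol, TAP moves into the endoplasmic reticulum and tapasin helps to load, and they show them to CD8 T cells; in brain they are also found on neurons, glia and endothelium. Class II molecules are built of an alpha and a beta chain held by the invariant chain CD74, are loaded with the help of H2-DM, and are mostly made by dendritic cells, B cells and macrophages. NLRC5 switches on class I genes and CIITA class II genes. Both work at promoters with a conserved module that ends in a CCAAT box, and class I promoters also hold sites for NF-kB and for interferon regulatory factors (IRF).

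This promoter layout was seen in *H2-K1*, *H2-D1*, *H2-Q6*, *H2-Q7*, *B2m* and some other members, but not in all class I genes with values below. The 200 bases before the annotated start of 4 heavy chain genes and of *B2m* are printed to show it, together with those of *H2-Q2*, which lacks part of it. The sequences are from the RefSeq promoter table of GRCm38.p6, which held a window for 37 of the 48 genes, and run 5′ to 3′ on the strand of the gene. Capitals mark an NF-kB-like match (GGGNNTTNC), an IRF-like match (TTTCNNTT), a CRE-like match (TGACG) or a CCAAT box, each searched on both strands; in *H2-Q2* the IRF-like match and the box overlap.
H2-K1: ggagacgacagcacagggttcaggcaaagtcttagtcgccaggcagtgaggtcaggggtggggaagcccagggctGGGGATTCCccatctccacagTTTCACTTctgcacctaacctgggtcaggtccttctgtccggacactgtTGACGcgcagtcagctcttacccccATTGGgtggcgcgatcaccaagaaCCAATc
H2-D1: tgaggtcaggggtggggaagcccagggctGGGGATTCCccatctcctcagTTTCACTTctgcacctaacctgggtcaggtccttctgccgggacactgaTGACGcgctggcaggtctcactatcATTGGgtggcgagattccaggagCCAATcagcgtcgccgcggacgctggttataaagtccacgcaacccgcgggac
H2-Q7: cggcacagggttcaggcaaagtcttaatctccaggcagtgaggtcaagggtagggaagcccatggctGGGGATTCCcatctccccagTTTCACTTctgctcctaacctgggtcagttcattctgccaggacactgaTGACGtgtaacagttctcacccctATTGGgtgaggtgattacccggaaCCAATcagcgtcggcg
H2-Q6: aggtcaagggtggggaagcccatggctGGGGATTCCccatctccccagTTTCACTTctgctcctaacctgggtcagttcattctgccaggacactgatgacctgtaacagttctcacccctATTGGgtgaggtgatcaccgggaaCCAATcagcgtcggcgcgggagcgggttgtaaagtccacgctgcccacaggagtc
H2-Q2: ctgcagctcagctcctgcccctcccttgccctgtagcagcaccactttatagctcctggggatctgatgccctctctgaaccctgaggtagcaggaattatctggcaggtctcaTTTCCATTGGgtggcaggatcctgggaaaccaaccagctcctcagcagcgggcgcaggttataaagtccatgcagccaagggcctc
B2m: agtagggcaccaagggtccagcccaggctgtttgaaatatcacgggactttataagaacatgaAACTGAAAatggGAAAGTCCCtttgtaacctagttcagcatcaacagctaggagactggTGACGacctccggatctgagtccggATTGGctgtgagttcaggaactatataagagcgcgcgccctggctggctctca
The windows are chr17:34000334-34000533 on the minus strand for *H2-K1*, and on the plus strand chr17:35262894-35263093 for *H2-D1*, chr17:35438955-35439154 for *H2-Q7*, chr17:35424650-35424849 for *H2-Q6*, chr17:35342107-35342306 for *H2-Q2* and chr2:122147487-122147686 for *B2m*. The table lists 2 starts for *H2-K1*, and the other has the same matches except the CCAAT box next to the start.

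In *H2-K1*, *H2-D1*, *H2-Q6* and *H2-Q7* the NF-kB-like letters GGGGATTCC were followed by the IRF-like letters TTTCACTT and by 2 CCAAT boxes, one on each strand. *H2-K1*, *H2-D1* and *H2-Q7* also had the CRE-like letters between them, and *H2-Q6* did not. *B2m* had 1 match of each of the 4 kinds, with the IRF-like match before the NF-kB-like one. *H2-Q2* had no NF-kB-like and no CRE-like match. *H2-Q10* had the IRF-like match alone, *Tapbp* had CCAAT boxes alone, and *Psmb8* had none of the 4 kinds. *H2-Q4*, which did not pass the count filter, had all 4 kinds. Whether the layout goes with the diet difference was not tested. Over the 250 bases before the start, an NF-kB-like match was present in 9 of 24 class I windows, 2 of 9 class II windows and 13% of all 32851 windows in the table. The IRF-like letters were in 15 of 24 class I windows, 3 of 9 class II windows and 21.3% of all. A CCAAT box was in 21 of 24 and 8 of 9, against 33.8% of all, and the CRE-like letters in 12 of 24 and 1 of 9, against 17.8%. The GAS-like TTCNNNGAA of STAT factors, was in 2 of 24, 1 of 9 and 7.02% of all, among them *H2-M3* and *H2-DMb2*; *Psmb8* also had one. Class I windows share descent, so they are not independent of each other, and a match of letters is not a binding site. *H2-K1* and *H2-M9* each entered these counts with 2 overlapping windows, and *H2-DMa* with 2 separate ones.

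**Figure D1:**
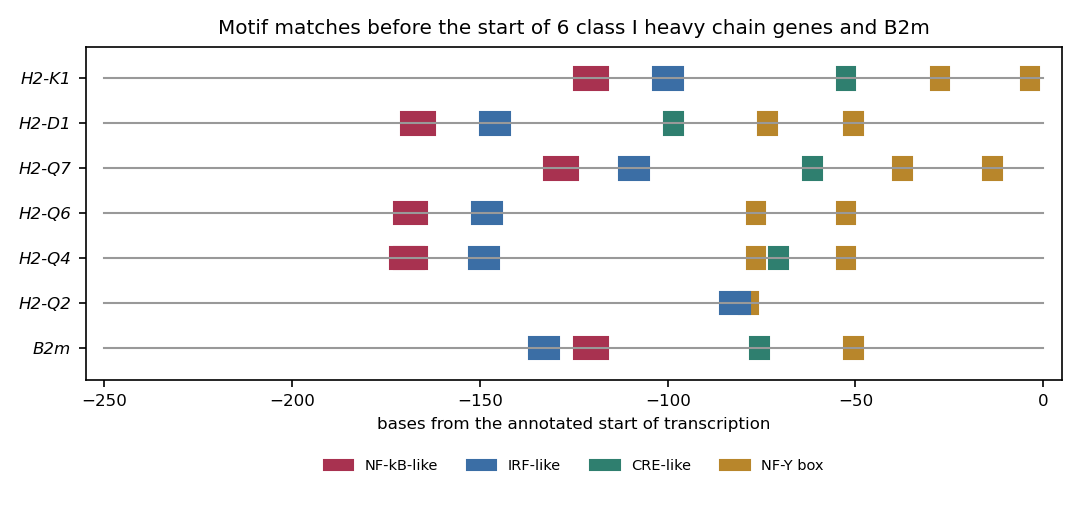
Positions of motif matches in the 250 bases before the annotated start of transcription (x axis, bases) of 6 class I heavy chain genes and *B2m*; the NF-Y box is the CCAAT box. The NF-kB-like and IRF-like matches stand side by side in 5 heavy chain genes, and *H2-Q2* has neither an NF-kB-like nor a CRE-like match.

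Across the members, 20 of 27 tested genes were higher and 7 lower in HFD, with a median log2 fold change of 0.46, against a median of 0.00 over all 14188 genes. At an unadjusted p under 0.05, 6 members were higher in HFD and none was lower; 1.21% of all genes tested were higher at that threshold. They were *H2-K1*, *H2-Q6*, *H2-Q7*, *B2m*, *Psmb8* and *Nlrc5*, which are heavy chains, the light chain, a proteasome subunit and the class I transactivator. After Benjamini-Hochberg adjustment over all genes, edgeR's quasi-likelihood test called 0 members (adjusted p = 0.999 for each of these 6), against 0.0564% of all genes, and DESeq2 also called 0, with 7 at an unadjusted p under 0.05; over all genes DESeq2 had 19 and 323. In 5 members every HFD sample was above every NCD sample (*H2-K1*, *H2-D1*, *H2-Q7*, *B2m* and *Nlrc5*), against 3.24% of all genes. With library size as a covariate, *B2m*, *H2-K1*, *H2-Q6* and *Psmb8* were still under 0.05 unadjusted, and *H2-Q7* and *Nlrc5* were just above it with log2 fold changes of 1.28 and 1.51. In the same fit *H2-D1* (0.59), *H2-DMb2* (-1.40) and *H2-T23* (-0.35) were under it, and 447 of all genes were, against 326 without the covariate. These shares stand beside a family that was picked from the same comparison.

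**Figure D2:**
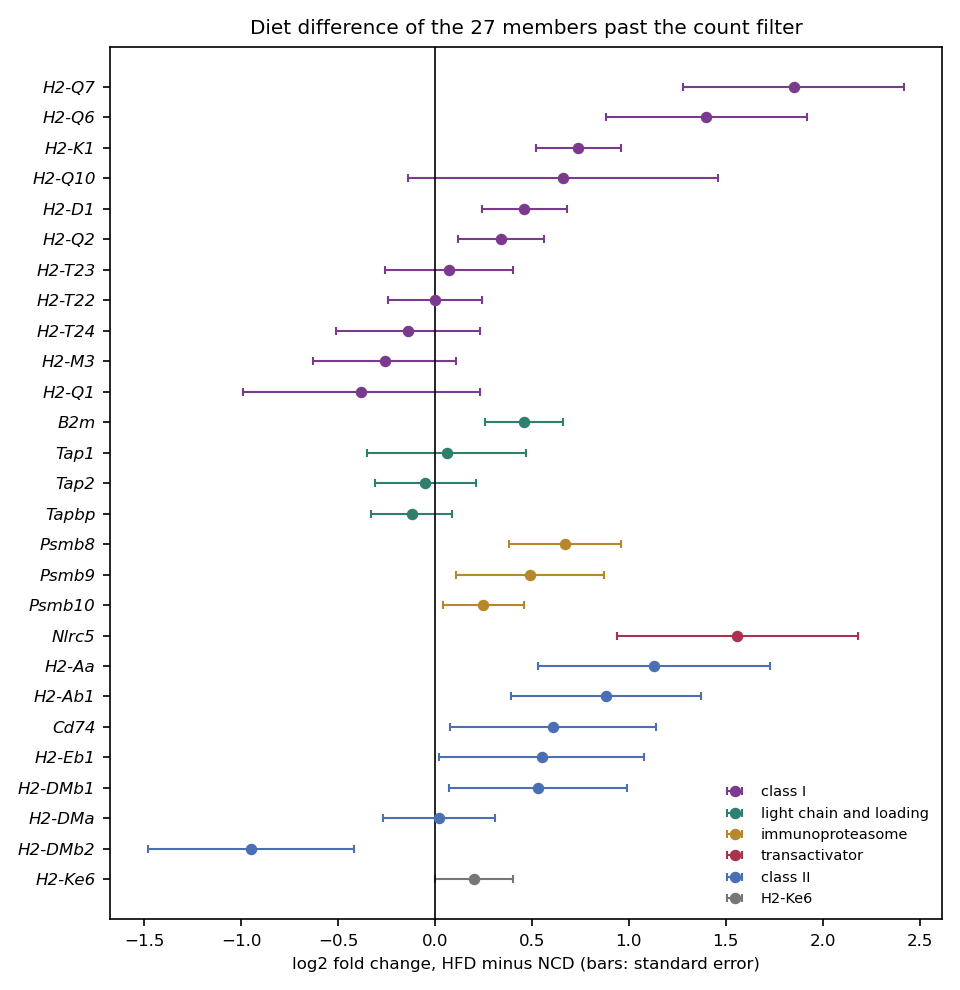
Log2 fold change, HFD minus NCD (x axis, point), with its standard error (bar) for the 27 members that passed the count filter, coloured by role. *H2-Q7*, *Nlrc5* and *H2-Q6* stand farthest to the right at 1.85, 1.56 and 1.40, while *Tap1*, *Tap2* and *Tapbp* lie within 0.12 of 0.

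Among the class I heavy chains, 11 of 27 genes were tested, 7 higher and 4 lower, with a median log2 fold change of 0.34; the median was 0.07 with the H2-Q counts added into 1 row. Per transcript length, the mean over all samples was an FPKM of 66.3 for *H2-D1*, 57.6 for *H2-T23*, 54.1 for *H2-Q2* and 40.4 for *H2-K1*. The next were *H2-T22* at 12.7, *H2-T24* at 9.11 and *H2-M3* at 3.47, and no other heavy chain was above 2. In NCD the SDs of *H2-D1* (56.1 ± 14.7, n = 3), *H2-T23* (55.7 ± 23.2, n = 3) and *H2-Q2* (47.5 ± 8.47, n = 3) overlapped, while that of *H2-K1* (28.6 ± 1.18, n = 3) lay below that of *H2-Q2*.

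*H2-K1* (ENSMUSG00000061232, chr17:33996017-34000347) encodes the K heavy chain, one of the classical class I molecules. It was at 40.1, 36.2 and 32.2 CPM in NCD1 to NCD3 and at 60.7, 46.3 and 75.4 CPM in HFD1 to HFD3. Every HFD sample was above every NCD sample, and HFD2 was the closest to them. The means were 36.2 ± 3.95 and 60.8 ± 14.6 CPM (SD, n = 3 each), a log2 fold change of 0.74 with a standard error (SE) of 0.22. *H2-D1* (ENSMUSG00000073411, chr17:35262730-35267499), which encodes the D heavy chain, also a classical class I molecule, was at 133, 118 and 83.4 CPM in NCD and 157, 144 and 160 CPM in HFD. The groups did not overlap, but NCD1 and HFD2 were close, and the log2 fold change was 0.46 (SE 0.22). *H2-K1* made up 24.9% ± 2.61 of the summed counts of both genes in NCD and 28.1% ± 3.86 in HFD (SD, n = 3 each), and the samples of the groups overlapped.

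The H2-Q genes encode nonclassical class I molecules, Qa-2 among them, which comes from *H2-Q7* and its close relatives. Of 7 H2-Q genes, 5 were tested. *H2-Q7* (ENSMUSG00000060550, chr17:35439155-35443773) was at 0.783, 0.713 and 1.05 CPM in NCD and at 3.11, 1.38 and 4.89 CPM in HFD, from 92 counts in all. The groups did not overlap, and HFD2 was again the HFD sample nearest to NCD. Its log2 fold change of 1.85 (SE 0.57) was the largest of the tested members. *H2-Q6* (ENSMUSG00000073409, chr17:35424850-35430055) was at 3.25, 1.53 and 1.20 CPM in NCD and 5.72, 2.66 and 8.47 CPM in HFD. Here NCD1 was above HFD2, so the groups overlapped, and the log2 fold change was 1.40 (SE 0.52).

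*H2-Q2* was by far the most abundant H2-Q gene, at 65.4, 50.7 and 52.1 CPM in NCD and 54.6, 73.7 and 85.8 CPM in HFD. Its groups overlapped, with a log2 fold change of 0.34 (SE 0.22). *H2-Q1* was at 1.69, 1.22 and 0.602 CPM in NCD and 0.870, 0.591 and 1.51 CPM in HFD, and *H2-Q10* at 1.14, 0.102 and 0.602 against 1.62, 1.18 and 0.188 CPM. Both lay near the floor of 3 counts in several samples, and neither set of samples was separate. *H2-Q6* and *H2-Q7* together made up 4.53% ± 0.878 of the H2-Q counts in NCD and 10.4% ± 4.68 in HFD (SD, n = 3 each), where NCD1 was above HFD2.

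These genes are near-identical copies in part, so single values depend on how the authors' counting divided reads. Of all 50-base stretches in the transcripts of *H2-Q6*, 35% also occur in another gene, and the share was 26.5% for *H2-Q7*, 16.1% for *H2-Q2*, 12.8% for *H2-D1* and 9.63% for *H2-K1*. With all H2-Q counts added, the sum was 72.8, 54.9 and 57 CPM in NCD and 66.7, 80 and 102 CPM in HFD. Its log2 fold change was 0.43 (SE 0.22), with NCD1 above HFD1, so the size of the *H2-Q6* and *H2-Q7* differences was not seen in the sum, most of which was *H2-Q2*. All class I heavy chains added gave 331, 323 and 344 CPM in NCD and 416, 364 and 487 CPM in HFD, without overlap (log2 fold change 0.35, SE 0.21). Without *H2-K1* and *H2-D1* the sum was 158, 168 and 228 CPM in NCD and 198, 174 and 251 CPM in HFD, which overlapped (0.17, SE 0.23).

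Among the tested H2-T and H2-M genes no log2 fold change was above 0.07, and the groups overlapped in each. *H2-T23*, which encodes Qa-1, a ligand of inhibitory receptors on NK cells, was at 49.1, 76.9 and 123 CPM in NCD and 92.7, 53.8 and 114 CPM in HFD. Its high samples were NCD3, HFD3 and HFD1, the 3 shallowest libraries, and *H2-T24* had the same 3 samples highest; their log2 fold changes were 0.07 (SE 0.33), which turned to -0.35 with library size as a covariate, and -0.14 (0.37), which turned to 0.42 without NCD3. *H2-T22* was at 21, 20.8 and 20.5 CPM in NCD and 21, 26 and 14.7 CPM in HFD, centred on the same level. It shares 53.5% of its 50-base stretches with other genes, mainly *H2-T10* and an antisense gene. *H2-M3*, whose product presents peptides that begin with formylmethionine, had a log2 fold change of -0.26 (SE 0.37).

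The light chain gene *B2m* (ENSMUSG00000060802, chr2:122147686-122153083) was the most abundant member, with a mean FPKM of 314. It was at 215, 238 and 229 CPM in NCD and 291, 287 and 362 CPM in HFD. Every HFD sample was above every NCD sample, and the NCD samples lay close together. The means were 227 ± 11.4 and 313 ± 42.1 CPM (SD, n = 3 each), a log2 fold change of 0.46 with an SE of 0.20. No 50-base stretch of *B2m* occurs in another gene, so its counts do not share the limit of the heavy chains.

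In the genes that load class I the groups overlapped. *Tap1*, a subunit of the peptide transporter, was at 8.31, 4.28 and 3.76 CPM in NCD and 5.72, 3.94 and 7.90 CPM in HFD. *Tap2*, the other subunit, was at 12.3, 10.4 and 9.03 CPM in NCD and 10.8, 9.37 and 10.7 CPM in HFD. *Tapbp*, which encodes tapasin, was at 69.1, 65.7 and 44.2 CPM in NCD and 58.7, 51.7 and 55.1 CPM in HFD. In all 3 genes every HFD sample lay inside the range of the NCD samples, and the log2 fold changes were 0.06 (SE 0.41), -0.05 (0.26) and -0.12 (0.21).

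The immunoproteasome subunits replace the standard catalytic subunits of the proteasome and favour peptides that fit class I. *Psmb8* (ENSMUSG00000024338, chr17:34197721-34201454) was at 14.9, 9.98 and 8.43 CPM in NCD and 19.5, 13.2 and 20.9 CPM in HFD. NCD1 was above HFD2, and the log2 fold change was 0.67 (SE 0.29). *Psmb9* was at 4.46, 4.07 and 3.61 CPM in NCD and 6.21, 3.45 and 7.71 CPM in HFD, with HFD2 below every NCD sample (0.49, SE 0.38). On the FPKM scale its difference was larger, with a log2 fold change of 0.94 on log2(FPKM + 1) and an unadjusted p under 0.05 in limma. In the same fit *Psmb8* (0.52) and *B2m* (0.46) were not under that threshold. *Psmb10* was at 34.8, 47.0 and 52.8 CPM in NCD and 50.6, 59.2 and 50 CPM in HFD, with overlap (0.25, SE 0.21). *Psmb9* and *Tap1* start next to each other on opposite strands and their exons overlap. Exons of *Psmb8*, *Tap2*, *Tapbp* and *H2-DMa*, among other members, also overlap those of antisense genes. Of the 50-base stretches, 23.2% in *Tapbp* and 11.6% in *Tap2* also occur in other genes. Whether reads were counted by strand is not given in the sources used here.

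*Nlrc5* (ENSMUSG00000074151, chr8:94434356-94527272), the transactivator of class I genes, was at 2.35, 0.407 and 1.05 CPM in NCD and 2.98, 2.46 and 6.77 CPM in HFD. The groups did not overlap, but NCD1 and HFD2 were nearly equal, and HFD3 held the highest value. The log2 fold change was 1.56 (SE 0.62) from 135 counts in all, of which NCD2 held 4. *Ciita*, the transactivator of class II genes, did not pass the filter, with 0.361, 0.509 and 1.20 CPM in NCD and 0.373, 0.493 and 1.69 CPM in HFD, close to the floor of 3 counts in most samples.

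**Figure D3:**
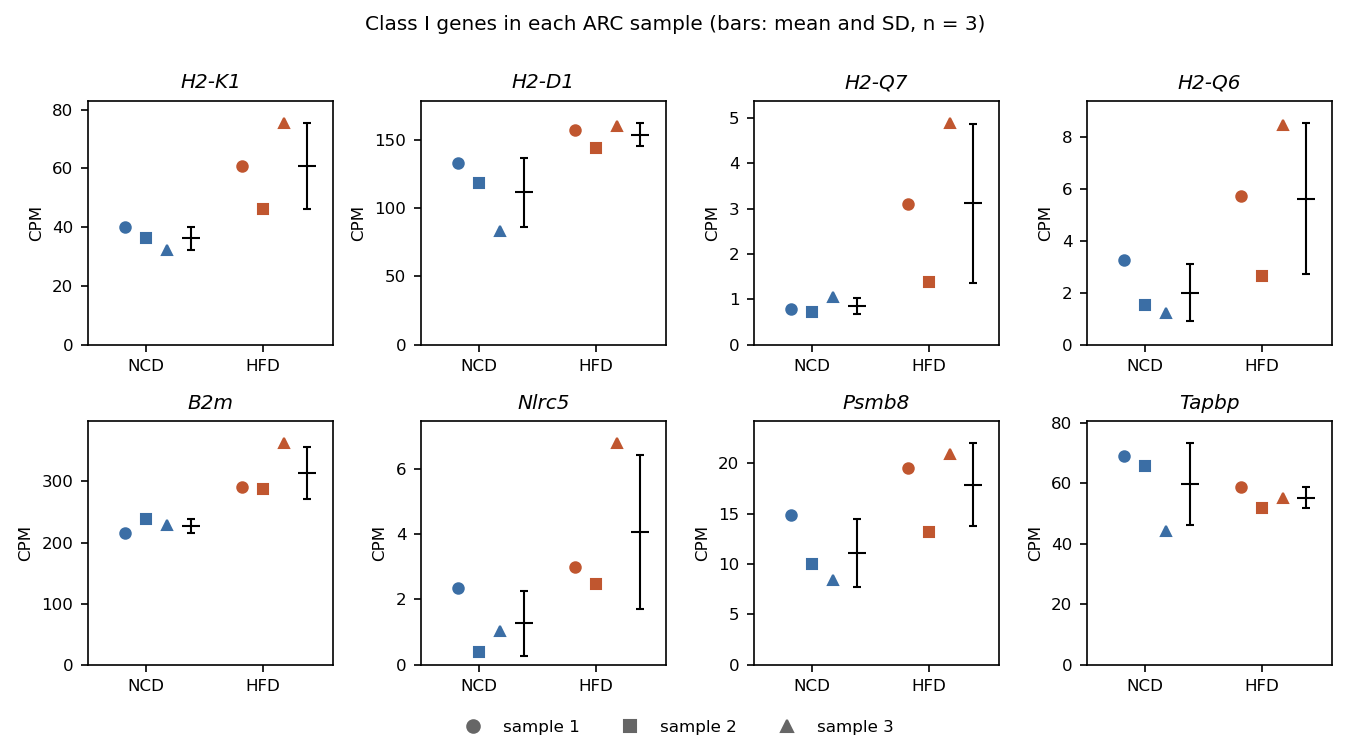
Level in CPM (y axis, from 0) of 8 class I pathway genes in each NCD and HFD sample (points, shape by sample number), with the mean and SD of 3 samples. The groups are apart for *H2-K1*, *H2-D1*, *H2-Q7*, *B2m* and *Nlrc5*, overlap for *H2-Q6* and *Psmb8*, and are mixed for *Tapbp*.

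Class II genes were low, and their high samples came from both diets. Of 11 genes, 7 were tested, 6 higher and 1 lower in HFD, with a median log2 fold change of 0.55 and none at an unadjusted p under 0.05. *Cd74*, the invariant chain, was the most abundant at a mean FPKM of 9.60. It was at 17.7, 5.50 and 4.36 CPM in NCD and 17.8, 5.62 and 20.3 CPM in HFD. NCD1, HFD1 and HFD3 were thus high and the other 3 samples low, whatever the diet, and the log2 fold change was 0.61 (SE 0.53).

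The chains of the class II A molecule had the same 3 samples highest. *H2-Aa*, the alpha chain, was at 4.03, 0.713 and 1.81 CPM in NCD and 4.85, 2.37 and 8.09 CPM in HFD (log2 fold change 1.13, SE 0.60). *H2-Ab1*, the beta chain, was at 7.04, 2.34 and 2.26 CPM in NCD and 7.83, 4.34 and 10.3 CPM in HFD (0.88, SE 0.49). In both genes NCD1 lay between HFD2 and HFD1. *H2-Eb1*, the beta chain of the E molecule, whose alpha chain C57BL/6 mice do not make, was at 5.30, 2.54 and 1.81 CPM in NCD and 2.73, 3.45 and 8.84 CPM in HFD (0.55, SE 0.53). Here HFD3 stood alone above the others. In *Cd74*, *H2-Aa* and *H2-Ab1*, 3 of the 7 class II genes tested, the 3 highest samples were NCD1, HFD1 and HFD3, and the same held for 8 of all 27 tested members and for 4.42% of all genes tested; the order was noticed after the values had been seen.

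Of the loading genes of class II, *H2-DMa*, a subunit of the peptide exchanger H2-DM, was at 9.33, 11.0 and 6.92 CPM in NCD and 9.32, 8.48 and 9.97 CPM in HFD, with a log2 fold change of 0.02 (SE 0.29). *H2-DMb2* was at 2.47, 2.65 and 4.06 CPM in NCD and 1.74, 0.690 and 2.45 CPM in HFD, the 1 tested member with every HFD sample below every NCD sample, although NCD1 and HFD3 were nearly equal (-0.95, SE 0.53). Its near copy *H2-DMb1*, with which it shares 21.2% of its 50-base stretches, had a log2 fold change of 0.53 (SE 0.46). The class II sum was 48.8, 29.1 and 23 CPM in NCD and 48.5, 29 and 64.7 CPM in HFD.

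**Figure D4:**
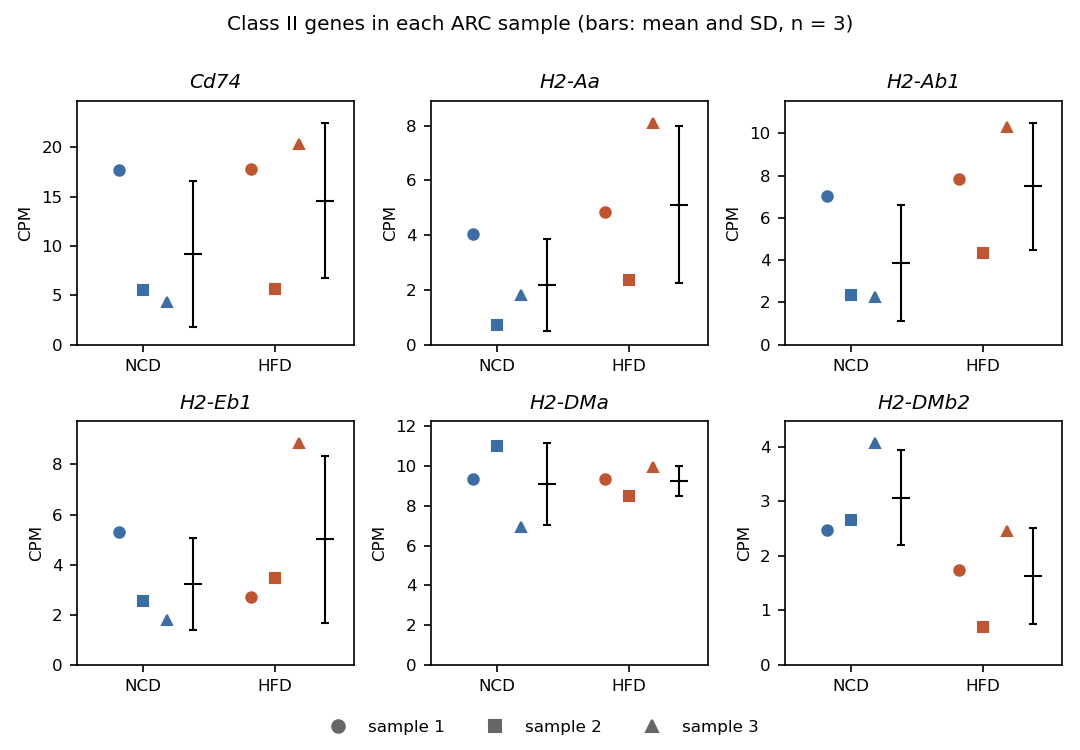
Level in CPM (y axis, from 0) of 6 class II pathway genes in each NCD and HFD sample (points, shape by sample number), with the mean and SD of 3 samples. For *Cd74*, *H2-Aa* and *H2-Ab1*, sample 1 of both groups and sample 3 of HFD are the high ones.

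*H2-Ke6* carries an H2 name for its place in the complex but encodes a dehydrogenase of fatty acid and steroid metabolism. It was at 37.6, 49.4 and 48.9 CPM in NCD and 48.2, 52.6 and 55.1 CPM in HFD, with overlap (log2 fold change 0.20, SE 0.20).

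Other genes of the pathways came from lists written from general knowledge. Of 16 further class I pathway genes, such as peptidases, chaperones and standard proteasome subunits, all were tested, 11 higher and 5 lower in HFD, with a median log2 fold change of 0.13 and none at an unadjusted p under 0.05. The most abundant was the proteasome subunit *Psmb6*, with a mean FPKM of 423 and 223, 336 and 381 CPM in NCD against 364, 393 and 338 CPM in HFD. Of 9 class I-like molecules with other names, 5 were tested, led by the antibody receptor chain *Fcgrt* at a mean FPKM of 12.6, none passed that threshold, and *Cd1d2* had no count in any sample.

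Of 12 further class II pathway genes in the table, 11 were tested with a median log2 fold change of -0.06, and 2 were higher at an unadjusted p under 0.05. *Ctss*, the protease that trims the invariant chain, was at 112, 135 and 118 CPM in NCD and 177, 153 and 184 CPM in HFD, without overlap (log2 fold change 0.50, SE 0.19). *Ifi30*, which encodes a thiol reductase of the endosome, was at 3.19, 3.87 and 3.01 CPM in NCD and 5.84, 6.11 and 6.02 CPM in HFD, also without overlap (0.83, SE 0.34). The most abundant gene of that list was the protease *Ctsb*, with a mean FPKM of 144. After adjustment over all genes by edgeR's quasi-likelihood test, *Ctss* and *Ifi30* had an adjusted p = 0.999.

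Of 22 regulators of MHC transcription, all were tested, 16 higher and 6 lower, with a median log2 fold change of 0.24 and 2 higher at an unadjusted p under 0.05. *Rfxap*, a subunit of the factor that binds the conserved module of MHC promoters, was at 24.3, 10.3 and 19.9 CPM in NCD and 51.3, 14.5 and 39.5 CPM in HFD, with NCD1 above HFD2 (0.94, SE 0.41). *Socs3*, an inhibitor of cytokine receptor signalling, was at 3.91, 5.60 and 3.31 CPM in NCD and 9.07, 6.01 and 12.4 CPM in HFD, without overlap (1.08, SE 0.37). *Stat3*, the most abundant of them, was at 176, 129 and 88.0 CPM in NCD and 161, 155 and 128 CPM in HFD.

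Of 24 interferon-stimulated genes, 22 were tested, 19 higher and 3 lower, with a median log2 fold change of 0.31 and none at an unadjusted p under 0.05. Their summed level was 339, 224 and 236 CPM in NCD and 345, 280 and 379 CPM in HFD, so NCD1, HFD1 and HFD3 were the highest here too. The most abundant was *Ifi27*, with a mean FPKM of 68. Of 9 interferon receptors, kinases and interferons, 7 were tested with a median of 0.00, the most abundant being the kinase *Jak1*, and *Ifnb1* had no count in any sample. Of 12 genes in a list of class I receptors and partners, 2 passed the filter, *Pirb*, an inhibitory receptor of class I, and *Insr*, the insulin receptor; neither passed that threshold, and *Klrd1* was at 0 in every sample.

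Markers of the cell types that could hold these transcripts were summed in each sample. The 14 microglia markers, led by *C1qb* at a mean FPKM of 73.2, summed to 505, 536 and 455 CPM in NCD and 566, 579 and 569 CPM in HFD, without overlap, and 10 of 14 were higher in HFD. *C1qb*, a complement chain, was at 64.6, 75.4 and 62.9 CPM in NCD and 92.0, 93.6 and 90.1 CPM in HFD, and *C1qa* at 37.6, 46.9 and 35.2 against 57.0, 44.9 and 63.8 CPM; both were under 0.05 unadjusted. Without *C1qa*, *C1qb* and *C1qc*, a sum formed after the values had been seen, the other 11 microglia markers gave 349, 352 and 302 CPM in NCD and 345, 373 and 332 CPM in HFD, which overlapped. The 11 endothelial markers summed to 241, 253 and 216 CPM in NCD and 266, 267 and 270 CPM in HFD. *Ly6c1*, the most abundant of them, was at 21.9, 34 and 37 CPM in NCD and 57.5, 56.2 and 48.0 CPM in HFD, and *Ly6a* at 14.2, 23.3 and 20.0 against 31.3, 31.8 and 34.2 CPM. *Cldn5*, the junction protein of brain endothelium, went the other way, at 48.4, 52.2 and 44.4 CPM in NCD and 35.5, 40.4 and 28.0 CPM in HFD. Without *Ly6a* and *Ly6c1*, a sum formed after the values had been seen, the other 9 endothelial markers gave 205, 195 and 159 CPM in NCD and 177, 179 and 188 CPM in HFD, which overlapped. The part of microglia and of endothelium in the class I values was not tested.

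Of the markers of border macrophages, dendritic cells and lymphocytes, few passed the filter: 1 of 8, 2 of 7, 2 of 10 for T and NK cells and 1 of 6 for B cells. The 8 markers of perivascular and border macrophages summed to 7.22, 9.16 and 7.52 CPM in NCD and 9.08, 9.37 and 18.3 CPM in HFD, with HFD3 the highest, and *Stab1*, the most abundant, was the 1 tested. The 7 dendritic cell markers, led by *Zbtb46*, summed to 18, 15.4 and 16.4 CPM in NCD and 13.7, 13.8 and 21.6 CPM in HFD. The 10 markers of T and NK cells, led by *Trbc2*, summed to 9.51, 13 and 19.1 CPM in NCD and 17, 13.1 and 18.8 CPM in HFD. The 6 B cell markers, led by *Ighm*, summed to 12.4, 12.6 and 10.7 CPM in NCD and 11.2, 10.5 and 6.02 CPM in HFD, and *Ms4a1* was at 0 in every sample. NCD1, which was among the high samples for *Cd74*, was the second highest for the dendritic and B cell sums and not among the 3 highest for border macrophages, T and NK cells or microglia. The part of these cells in the class II values was not tested.

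The remaining lists mark how the cut areas compared. The 8 markers of pericytes and smooth muscle were led by *Rgs5*. They summed to 232, 206 and 176 CPM in NCD and 183, 198 and 182 CPM in HFD. The fitted log2 fold change was below 0 in 8 of 8, with 2 under 0.05 unadjusted. *Rgs5* (-0.00) and *Pdgfrb* (-0.01) were level, and the mean of *Pdgfrb* was 11.2 CPM in NCD and 11.3 CPM in HFD. Of the 2 under 0.05, *Acta2* was at 20.7, 21.3 and 14.7 CPM in NCD and 7.58, 12.1 and 12.4 CPM in HFD. *Tagln* was at 8.79, 5.70 and 8.13 against 1.99, 4.14 and 4.89 CPM. The 8 markers of meninges and choroid plexus summed to 972, 856 and 737 CPM in NCD and 526, 390 and 1877 CPM in HFD. HFD3, the highest sample for *H2-K1*, *H2-Q7*, *B2m*, *Nlrc5* and the class II sum, was far above the others. Most of the marker sum was *Ptgds*, at 900, 795 and 664 CPM in NCD and 458, 338 and 1740 CPM in HFD. *Dcn*, *Col1a1*, *Col1a2* and *Lum* were also highest in HFD3, while *Ttr*, *Folr1* and *Kl* were not. The 5 red blood cell markers, led by *Hba-a2*, were lower in HFD in 5 of 5 genes, none under 0.05 unadjusted. The 8 general neuron markers, led by *Snap25*, had a median log2 fold change of 0.04.

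Among glial and neuronal lists, *Gfap*, the astrocyte filament, was at 217, 207 and 83.1 CPM in NCD and 406, 328 and 198 CPM in HFD, while the 7 astrocyte markers, led by *Aldoc*, had a median log2 fold change of -0.12. The 7 tanycyte markers, led by *Nnat*, were higher in HFD in 7 of 7 genes, from 0.03 to 0.91, with a median of 0.27. *Crym* and *Col23a1* were under 0.05 unadjusted, with log2 fold changes of 0.89 and 0.91. The 7 oligodendrocyte markers, led by *Mbp*, had a median of -0.22. Of the 15 ARC neuron markers, 11 were higher and 4 lower in HFD, with a median of 0.19, and 2 were higher at an unadjusted p under 0.05. *Cartpt* was at 396, 673 and 577 CPM in NCD and 904, 777 and 1080 CPM in HFD, and *Tac2*, which encodes neurokinin B, at 19.6, 27.4 and 33.7 against 49.5, 28.7 and 43.8 CPM. *Kiss1* was at 0, 2.75 and 4.81 CPM in NCD and 0, 2.07 and 7.90 CPM in HFD (log2 fold change 0.42, SE 1.19). The part of these cell types in the MHC values was not tested.

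**Figure D5:**
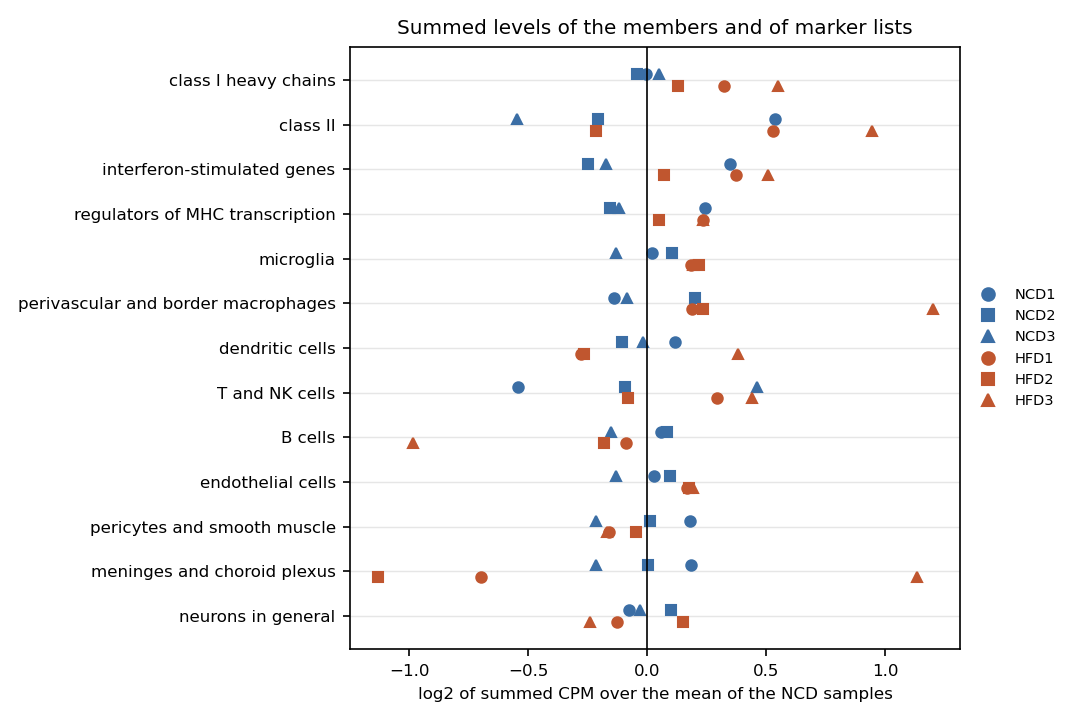
Summed CPM of the class I heavy chains, the class II genes and 11 lists of other genes in each sample, as log2 of its ratio to the mean of the NCD samples (x axis). Class I, microglia and endothelial sums are higher in all 3 HFD samples. The microglia sum overlaps without the *C1q* genes, as does the endothelial sum without *Ly6a* and *Ly6c1*. Class II follows NCD1, HFD1 and HFD3. The sum for meninges and choroid plexus, mostly *Ptgds*, is highest in HFD3.

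With each sample left out in turn, *H2-K1* and *H2-Q7* stayed under 0.05 unadjusted in 6 of 6 fits, *H2-Q6* in 4 and *Nlrc5* in 3, *Psmb8* in 2 and *B2m* in 0. *H2-Q6* was not under 0.05 without NCD2 or without HFD3, and *Nlrc5* not without NCD2, NCD3 or HFD3. Leaving out a sample also leaves fewer samples to test, and the log2 fold change stayed between 0.35 and 0.52 for *B2m* and between 0.51 and 0.93 for *Psmb8* in these fits. Without HFD3, *H2-K1* and *H2-Q7* were the members higher at that threshold and *H2-DMb2* was lower, and the log2 fold change was 0.56 for *H2-K1*, 1.40 for *H2-Q7*, 0.35 for *B2m* and 1.02 for *Nlrc5*. Among class II genes, that of *Cd74* was 1.52 without NCD1 and 0.30 without NCD3 or without HFD3, and that of *H2-Aa* 2.02 without NCD1 and 0.66 without HFD3. That of *H2-Ab1* was 1.67 without NCD1 and 0.59 without HFD3. Without NCD1, *Cd74*, *H2-Aa* and *H2-Ab1* were under 0.05 unadjusted, among 271 of all genes. *H2-Aa* and *H2-Ab1* were also under it without HFD2, among 659 of all genes. With a filter of 1 count in any sample, *H2-Aa* was under it, among 488 of all genes. No fit put a member under an adjusted p of 0.05, and the lowest adjusted p of *H2-K1* over all settings was 0.569 in edgeR's quasi-likelihood test.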

How the data were processed

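RNA-seq was done on ARC tissue cut by LCM from 3 NCD and 3 HFD samples. The authors made libraries from oligo(dT)-selected RNA, removed ribosomal reads with bowtie2, aligned the rest with HISAT2 and obtained gene-level values from StringTie and RSEM; the genome build in the submitters' processing notes is mm10. Tool versions, the annotation release and the strand setting are not given in the sources used here. The deposited table holds the read counts of each gene, which the authors did not normalize, and FPKM values, which they scaled to transcript length and mapped reads. The authors' group means, log2 fold changes, p-values and FDR, deposited in the same table, hold their own comparison and were not used. Sample titles carry the letters C and H, read as NCD and HFD.

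Identifiers were matched to GENCODE M21 (GRCm38, the same build); 22267 of 22322 had a symbol. Genes were filtered with filterByExpr, scaled by TMM and tested with edgeR's quasi-likelihood test, with the diet as the only term and Benjamini-Hochberg adjustment over 14188 genes. CPM values use the TMM scaling and compare 1 gene between samples; FPKM was used to compare genes per length, and its effective length can differ between samples. As nothing says that samples came from separate animals, p-values measure the spread between these samples, which may be technical. Reads have no molecular identifiers, so floors of 3 counts cover counting error only, and total counts from 5171381 to 15925648 set the precision.

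The members and lists were chosen with earlier results of these data known. Values in every sample are given for a fixed list of members and for any member with an unadjusted p under 0.05. Members with at most 10 counts are only counted, except that *H2-T3*, *H2-Ea-ps* and the group of H2-M genes without a count were named. Of other lists a gene is named where its unadjusted p was under 0.05 or it was the most abundant. *Pirb*, *Pdgfrb*, *Kiss1* and the list genes at 0 in every sample were named outside this rule, after their values had been seen. The same holds for the markers of meninges and choroid plexus besides *Ptgds*. Medians are over the tested genes of a list. Alternatives were scaling by RLE or by totals only, DESeq2 (Wald), a filter of 1 count in any sample, a filter of a mean of 50 counts, limma on log2(FPKM + 1) or log2(FPKM + 0.1) where the mean FPKM reached 0.5, a block for the replicate number, library size as a covariate, each sample left out, and the H2-Q counts added into 1 row. The fits were tested on simulated data. Fits were run in R 4.3.3 with DESeq2 1.42.0, limma 3.58.1 and edgeR 4.0.16, and figures in matplotlib 3.10.9 under Python 3.11.15.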

Additional observations from a re-analysis of the deposited data

How the results depend on the processing

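The number of members at an unadjusted p under 0.05 was 6, among 326 of all genes. With single samples left out it ranged from 2 (without NCD2, among 226 of all genes) to 9 (without NCD1, among 271); it was 3 without NCD3, where 1178 of all genes passed, and 3 without HFD3, where 280 did. *B2m* was above 0.05 unadjusted with the filter of 1 count (log2 fold change 0.45) and in both limma fits (0.46 in each). *Psmb8* was above it with scaling by totals only (0.66) and in both limma fits (0.52 and 0.57). No member passed an adjusted p of 0.05 under any of the 16 settings. The median log2 fold change was 0.15 to 0.46 for class I and 0.30 to 1.13 for class II when single samples were left out; that of class I was 0.07 with the H2-Q counts added into 1 row and 0.08 for genes with a mean of 50 counts or more, against 0.34. In the replicate block fit, 9 members were at an unadjusted p under 0.05 (*H2-D1*, *H2-Aa* and *H2-Ab1* were added) and 0 were adjusted, while the count over all genes went from 326 to 589. Samples with the same number correlated at -0.0116, 0.113 and 0.369, so the numbers are not taken to pair the samples. Over the 27 tested members, 394 of 413 alternative log2 fold changes kept their direction and 19 reversed, in 8 genes. With single samples left out, *Tap1* ran from -0.21 to 0.50, *Tap2* from -0.14 to 0.07, *H2-Eb1* from -0.10 to 1.13, *H2-DMa* from -0.13 to 0.17, *H2-T22* from -0.21 to 0.18, *H2-T23* from -0.21 to 0.47 and *H2-T24* from -0.44 to 0.42. *Tapbp* ran from -0.29 to -0.01 in those fits. With library size as a covariate, *Tap2* was 0.03, *Tapbp* 0.01, *H2-T22* 0.13 and *H2-T23* -0.35. *H2-T22* was 0.00 among genes with a mean of 50 counts or more, and *H2-T24* was 0.10 and 0.13 in limma on log2(FPKM + 1) and log2(FPKM + 0.1). The cause was not tested. In the last of these fits *Psmb9* was 1.09, against 0.49 for the counts. Other members were smaller in limma on log2(FPKM + 1), where *H2-Q6* was 0.88 and *Nlrc5* 0.77, against 1.40 and 1.56 for the counts. *H2-Q7* was smaller there too, below the 1.40 it had without HFD3. On log2(FPKM + 0.1), *H2-Q6* was 1.38, *Nlrc5* 1.81 and *H2-Q7* 1.57, the last against 1.85 for the counts. Among genes that kept their direction, leaving out 1 sample moved *H2-Ab1* between 0.59 and 1.67, *H2-K1* between 0.56 and 0.90, *H2-D1* between 0.30 and 0.59, *H2-Q7* between 1.40 and 2.23, *Nlrc5* between 1.02 and 2.47, *H2-Q2* between 0.19 and 0.51, *Psmb9* between 0.24 and 0.77, *Psmb10* between 0.08 and 0.39, *H2-DMb1* between 0.26 and 0.79, *H2-DMb2* between -1.33 and -0.54, *H2-M3* between -0.52 and -0.08, *H2-Ke6* between 0.07 and 0.27, *H2-Q1* between -0.75 and -0.08 and *H2-Q10* between 0.22 and 1.06. *H2-Q7* and *Nlrc5* rest on 92 and 135 counts, which limits their precision.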
